A study of Homo sapiens with 9 samples.

Results

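The cytosolic heat shock chaperones described here are 10 human genes, HSPA1A, HSPA1B, HSPA8, HSPA4L, HSPH1, HSP90AA1, HSP90AB1, DNAJB1, HSPB1 and BAG3. They were taken by name, with their Ensembl identifiers, from tables of 60671 genes, and all 10 passed the filter on low counts, as did 19812 genes in all. RNA sequencing covered 9 libraries of C28/I2, an immortalised human chondrocyte line, and no separate clones are named in the labels. The 3 groups of 3 libraries were CA2 shRNA (transduced with a short hairpin RNA against carbonic anhydrase 2), Scrambled and Control. The labels describe neither the Scrambled construct nor whether Control cells were transduced, and they do not say that replicates were separate cultures, so p-values measure the spread between these libraries, which may be technical. The series title names CA2 as required for metabolic homeostasis in articular chondrocytes, and the comparisons ask which transcripts differ when it is targeted.

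Chaperones bind unfolded stretches of other proteins and keep them from aggregating. HSP70 proteins do so in an ATP cycle that J-domain proteins start and exchange factors end, and HSP90 proteins receive clients from HSP70 with the help of co-chaperones. Under heat and other protein-damaging stress, the transcription factor HSF1 binds heat shock elements, inverted repeats of the letters GAA, and raises transcription of many of these genes.

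The promoters of the 10 genes were searched for those letters. RefSeq gives 17 windows for them, each from 250 bases before to 50 bases after a transcription start (GRCh38.p14). A pair of facing units was sought as GAANNTTC or TTCNNGAA, and a run of 3 units as GAANNTTCNNGAA or TTCNNGAANNTTC, which cover both strands. Every run of 3 contains overlapping pairs. The pair was found for 8 of the 10 genes, in 9 of 17 windows, against 13.5% of 35116 windows and 16.2% of 27305 genes in the table. The run of 3 was found for HSPA8, HSP90AA1 and HSP90AB1, in 3 of 17 windows, against 0.49% of windows in the table. No pair was found for HSPH1 or BAG3 in these windows. A match is a run of letters and not a measured binding site. The following stretches of 70 bases, 5′ to 3′, show the near-identical HSPA1A and HSPA1B promoters, the runs of 3 units, and 3 of the genes that rose below. Capitals mark the matched letters, and the BAG3 stretch, the 70 bases just before its start, holds none.
HSPA1A, chr6:31815406-31815475, plus strand: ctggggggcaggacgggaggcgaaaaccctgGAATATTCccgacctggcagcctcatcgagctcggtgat
HSPA1B, chr6:31827602-31827671, plus strand: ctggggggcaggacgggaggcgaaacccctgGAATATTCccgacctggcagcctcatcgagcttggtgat
HSPA8, chr11:123062151-123062220, minus strand: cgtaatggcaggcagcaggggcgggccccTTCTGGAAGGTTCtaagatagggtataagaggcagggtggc
HSP90AA1, chr14:102087092-102087161, minus strand: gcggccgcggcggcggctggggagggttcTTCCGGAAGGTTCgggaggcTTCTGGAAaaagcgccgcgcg
HSP90AB1, chr6:44247802-44247871, plus strand: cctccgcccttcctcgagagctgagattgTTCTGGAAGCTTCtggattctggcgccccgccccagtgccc
DNAJB1, chr19:14518406-14518475, minus strand: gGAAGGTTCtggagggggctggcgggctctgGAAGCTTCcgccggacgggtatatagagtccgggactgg
HSPA4L, chr4:127782121-127782190, plus strand: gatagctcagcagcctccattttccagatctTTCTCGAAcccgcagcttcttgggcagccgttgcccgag
BAG3, chr10:119651310-119651379, plus strand: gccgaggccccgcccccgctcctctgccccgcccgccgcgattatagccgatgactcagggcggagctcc
The HSPA1A and HSPA1B windows aligned with 277 identities, 22 mismatches and 2 gaps.

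Libraries held 16994368 to 27070048 counts in CA2 shRNA, 22352961 to 29605026 in Scrambled and 20715858 to 34261244 in Control. Mitochondrial genes took 5.55% to 6.62% of counts in CA2 shRNA, 4.08% to 6.86% in Scrambled and 4.06% to 5.97% in Control. CA2, the targeted gene, had 1.4, 0.905 and 1.1 TMM-scaled CPM (counts relative to library size) in CA2 shRNA, 1.82, 1.96 and 2.06 CPM in Scrambled, and 2.31, 2.00 and 1.94 in Control. In edgeR's quasi-likelihood test its log2 change was -0.77 from Scrambled (adjusted p = 0.0276) and -0.86 from Control (adjusted p = 0.0159), at counts low in every group. The first call held in 13 of 19 alternatives and the second in 16, with adjusted p up to 0.109 (without CA2 shRNA 3) and 0.0759. With all 9 libraries kept, the first was also lost with DESeq2 (adjusted p = 0.0524) and in edgeR with no filter (0.0544). Of 8 chondrocyte markers, 1 (COL9A1) was at 0 in all 9 libraries, and their summed level was 119 to 122 CPM in CA2 shRNA, 107 to 111 CPM in Scrambled and 99.9 to 115 CPM in Control. Most of that sum was the transcription factor SOX9, which averaged 105 ± 1.11 CPM in CA2 shRNA and 90.9 ± 2.34 CPM in Scrambled (SD, n = 3 each) and rose by 0.20 (adjusted p = 0.0364), a call that held in 13 of 19 alternatives. Of the 5 markers with enough counts to test, SOX9 alone rose and 4 were lower, with a list median of -0.16 against Scrambled, where the median over all genes was -0.03. COMP, a cartilage matrix protein named after its values were seen, had 1.55, 1.03 and 1.46 CPM in CA2 shRNA, 2.62, 2.77 and 2.06 CPM in Scrambled, and 2.77, 1.95 and 2.52 in Control. It fell by 0.86 against Scrambled (adjusted p = 0.0161, held in 18 of 19 alternatives) and by 0.83 against Control (adjusted p = 0.0215, held in 15). The part of these markers in the chaperone results was not tested, and in bulk RNA fewer cells of a type and less RNA per cell cannot be told apart. The cartilage matrix genes COL2A1 and ACAN were low in all groups, with 1.65, 1.45 and 1.79 CPM of COL2A1 in CA2 shRNA, 1.55, 1.62 and 2.23 CPM in Scrambled, and 1.64, 2.00 and 2.05 in Control. Markers of immune, endothelial and epithelial cells summed to at most 2.31, 4.46 and 1.27 CPM in any library.

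Control 3 and Scrambled 2 resembled each other more than they resembled their own groups. The chi-square of counts per gene was 3.38 for this pair, against at least 15.3 for Scrambled 2 set beside either of the other Scrambled libraries and 7.21 and 12.5 for Control 3 set beside the other Control libraries. With both left out, 5 of the 10 chaperone genes rose against Scrambled: HSPA4L by 0.57, BAG3 by 0.32, HSPH1 by 0.25, DNAJB1 by 0.23 and HSP90AA1 by 0.21 (adjusted p = 0.0215, edgeR), of which HSP90AA1 did not pass with them in. Against Control, BAG3 rose by 0.26 and DNAJB1 by 0.22 without them, and HSPA1A, at -0.18, no longer passed (adjusted p = 0.0534). Over all genes, 4289 then passed against Scrambled, 3213 against Control and 0 between Scrambled and Control. By the same chi-square, Control 1 and Scrambled 3 were also nearer to each other (3.59) than to their own groups (at least 4.32 and 5.23). The chi-square depends on library depth, so its values for different pairs are not strictly comparable.

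The 10 genes together took 0.609% ± 0.0186 of counts in CA2 shRNA, 0.572% ± 0.0295 in Scrambled and 0.590% ± 0.00735 in Control (SD, n = 3 each). Per kilobase of exon, as deposited RPKM averaged over the 9 libraries, the highest level was that of HSP90AB1 (414 RPKM), the constitutive HSP90. It was followed by HSPB1 (381), the small heat shock protein HSP27, then HSPA8 (321), the constitutive HSP70, and HSP90AA1 (280.4), the stress-inducible HSP90. By RPKM, each of these 4 stood above the next in all 9 libraries, although the ranges of neighbours among them overlapped. This order depends on the exon lengths used, 2980 bases for HSP90AB1, 1623 for HSPB1, 4849 for HSPA8 and 5097 for HSP90AA1. In CPM, without length, HSPA8 (1558) came first, then HSP90AA1 (1432), HSP90AB1 (1237) and HSPB1 (620). BAG3 (72.6 RPKM), DNAJB1 (68.3), HSPA1A (64.4), HSPA1B (54.4) and HSPH1 (36.9) lay in a lower band. DNAJB1 was above HSPA1A in 5 of 9 libraries: DNAJB1 averaged 74.0 ± 3.07 RPKM and HSPA1A 60.1 ± 1.16 in CA2 shRNA, 65.7 ± 3.94 and 63.6 ± 4.40 in Scrambled, and 65.0 ± 1.24 and 69.5 ± 0.179 in Control (SD, n = 3 each). By RPKM, DNAJB1 was thus the higher of the pair in CA2 shRNA and HSPA1A in Control, with overlapping values in Scrambled. BAG3 was above DNAJB1 in 8 of 9. In CPM, without length, DNAJB1 averaged 250, BAG3 199 and HSPA1A 155 over the 9 libraries. HSPA4L, a member of the HSP110 branch of the HSP70 family, was the lowest at 1.74 RPKM.

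Against Scrambled, HSPA4L, BAG3, HSPH1 and DNAJB1 rose in CA2 shRNA, by 1.13-fold to 1.36-fold, and none of the 10 fell. The other 6 genes, which include both HSP90 genes, HSPA8 and the inducible HSP70 pair, did not pass the test. Over all 19812 genes, 16.9% passed, 8.02% rising and 8.88% falling. The median log2 change was 0.12 over the 10 genes and -0.03 over all genes, and the median size of change was 0.117 against 0.186. By RPKM, each of the 10 but HSPA4L stood above at least 94% of tested genes. Sizes of change were not compared at matched expression levels.

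**Figure D1:**
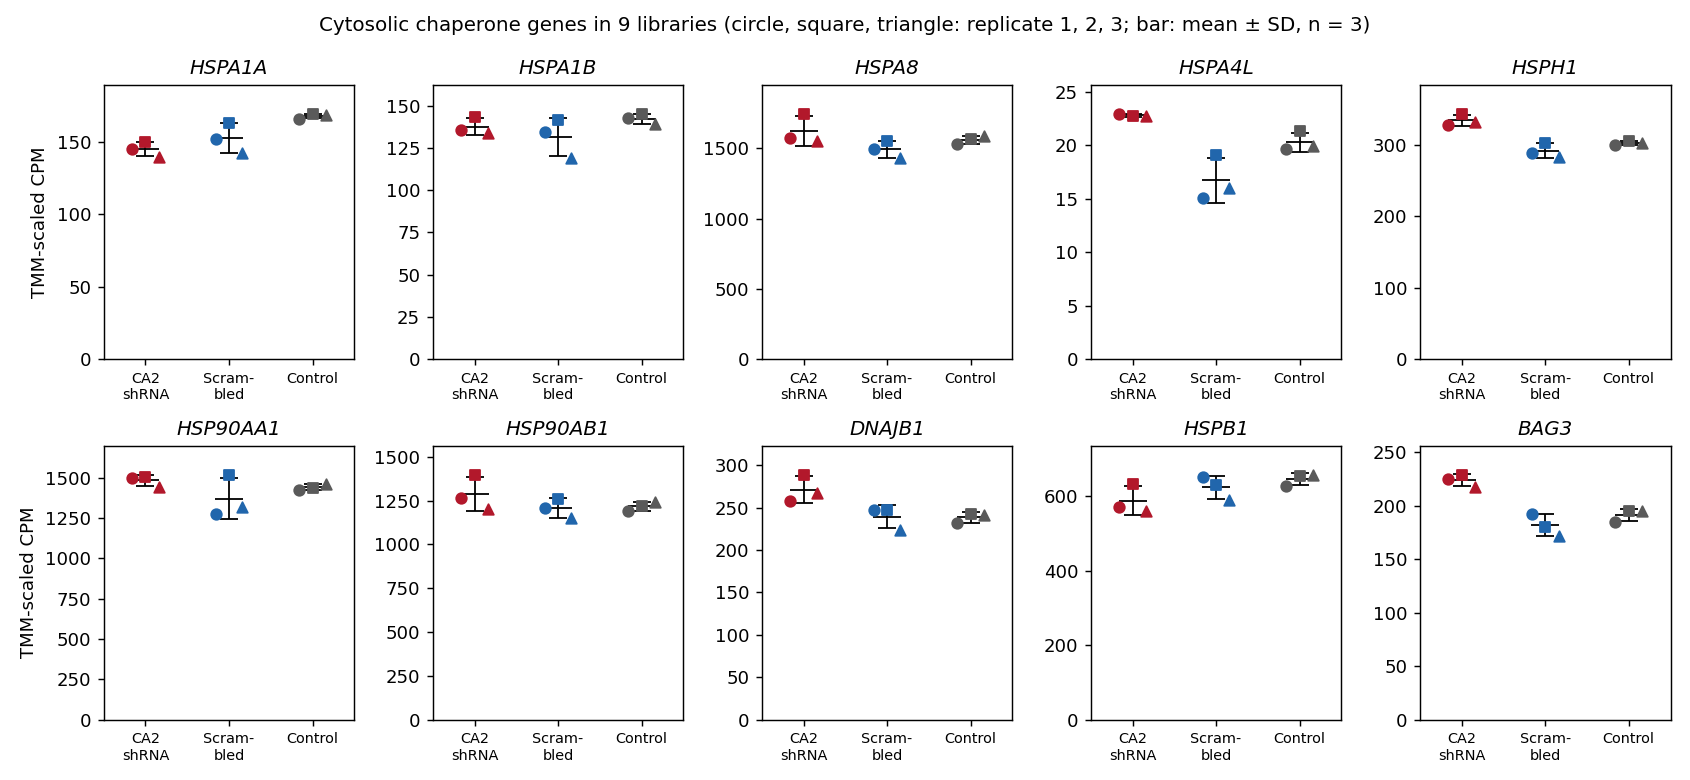
TMM-scaled CPM (vertical axis, from 0) of the 10 chaperone genes in each library, by group. Points are libraries and bars are the mean ± SD of 3. The CA2 shRNA libraries sit above all Scrambled libraries for HSPA4L, HSPH1, DNAJB1 and BAG3.

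Among the exchange factors, which release ADP from HSP70, HSPA4L (chr4:127781821-127840733, GRCh38, plus strand) had 22.9, 22.7 and 22.7 CPM in CA2 shRNA, 15.1, 19.1 and 16 CPM in Scrambled, and 19.6, 21.3 and 19.9 in Control. All CA2 shRNA libraries were above all others, and all Scrambled libraries were below all Control libraries. The change against Scrambled was 0.44 on the log2 scale (SE 0.091, adjusted p = 0.00224, edgeR). Against Control it was 0.17 (95% interval -0.02 to 0.36, adjusted p = 0.251) and did not pass. Scrambled less Control was -0.28 (unadjusted p = 0.00717, adjusted p = 0.9997).

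BAG3 (chr10:119651380-119677819, plus strand) encodes a co-chaperone that couples HSP70 to small heat shock proteins and to selective autophagy. It had 225, 229 and 218 CPM in CA2 shRNA, 193, 180.3 and 172 CPM in Scrambled, and 185, 195 and 195 in Control. The CA2 shRNA libraries were again above all others, and the control groups overlapped. BAG3 rose by 0.30 over Scrambled (SE 0.0551; adjusted p = 0.000887, edgeR) and also over Control, by 0.22 (SE 0.0551; adjusted p = 0.0094). The second call was lost without CA2 shRNA 2 (adjusted p = 0.0511).

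HSPH1 (chr13:31134973-31162388, minus strand) encodes HSP105, an exchange factor of the HSP110 branch. It had 329, 343 and 332 CPM in CA2 shRNA, 289, 304 and 283 CPM in Scrambled, and 301, 306 and 303 in Control, with every CA2 shRNA library above every other. It rose by 0.20 against Scrambled (SE 0.0504, adjusted p = 0.0114), a call lost without Scrambled 3 (adjusted p = 0.0746). Against Control the difference was 0.14 (95% interval 0.04 to 0.25, adjusted p = 0.0695) and did not pass. It passed in 5 of 19 alternatives, DESeq2 among them (adjusted p = 0.0466), with adjusted p up to 0.215 in the others.

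DNAJB1 (chr19:14514769-14529770, minus strand) encodes HSP40, a J-domain protein that hands clients to HSP70 and starts its ATP cycle. It had 258, 288 and 268 CPM in CA2 shRNA, 247, 247 and 224 CPM in Scrambled, and 231, 242 and 242 in Control. Every CA2 shRNA library was above every control library, and CA2 shRNA 1 was the nearest to them. DNAJB1 rose by 0.18 over Scrambled (SE 0.0581; adjusted p = 0.0403, edgeR) and also over Control, by 0.19 (SE 0.0581; adjusted p = 0.0385). Both calls were near the threshold: the first was lost in 6 of 19 alternatives (adjusted p up to 0.225, without Scrambled 3) and the second in 4 (up to 0.212, without CA2 shRNA 2).

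The inducible HSP70 genes HSPA1A (chr6:31815543-31817946, plus strand) and HSPA1B (chr6:31827738-31830254, plus strand) each have a single exon interval and cannot be read apart with certainty. Of the 50-base words in HSPA1A transcripts (GENCODE 29), 71.3% also occur in HSPA1B, and how the authors' counting treated such reads is not given in the sources used here. HSPA1A had 145, 149.9 and 139.8 CPM in CA2 shRNA, 152, 163 and 143 CPM in Scrambled, and 166, 169 and 168 in Control. The CA2 shRNA libraries overlapped Scrambled and lay below all Control libraries. The difference was -0.07 against Scrambled (adjusted p = 0.443). Against Control, HSPA1A fell by 0.21 (SE 0.0575, adjusted p = 0.0181, edgeR), a call lost without Control 2 (0.0513), Control 3 (0.0567), CA2 shRNA 1 (0.105) or CA2 shRNA 3 (0.156).

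HSPA1B had 135, 144 and 134 CPM in CA2 shRNA, 134, 141 and 119 CPM in Scrambled, and 143, 145 and 139 in Control, and the groups overlapped. Its differences were 0.06 against Scrambled (95% interval -0.07 to 0.20) and -0.05 against Control (-0.18 to 0.08). With the counts of both genes summed, which does not depend on how shared reads were divided between them, the differences were -0.01 against Scrambled (95% interval -0.13 to 0.11, adjusted p = 0.952) and -0.13 against Control (-0.26 to -0.01, adjusted p = 0.147). Neither passed. The annotation of the deposited tables also places 36.6% of HSPA1B exon bases under a second gene on the same strand, which had 0 counts in every library. That 0 does not tell whether reads from the overlap were counted for HSPA1B. The bearing of the overlap on the HSPA1B level, and on its ratio with HSPA1A, was not tested. Smaller overlaps covered 6.25% of exon bases of DNAJB1, 6.29% of HSPA4L, 3.92% of HSPA8 and 3.87% of HSP90AA1. In DNAJB1, 192 bases lie under TECR on the opposite strand, which had 58516 counts over the 9 libraries. In HSP90AA1, 197 bases lie under WDR20, also on the opposite strand (5792 counts). The strand setting of the counting is not given, and the bearing of these overlaps was not tested.

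HSPA8 (chr11:123057489-123063230, minus strand) encodes the constitutive HSP70 that folds new proteins in unstressed cells. It had 1575, 1742 and 1549 CPM in CA2 shRNA, 1497, 1549.5 and 1428 CPM in Scrambled, and 1530.2, 1565 and 1584 in Control. CA2 shRNA 2 was the highest of the 9 libraries, and the groups overlapped. The difference was 0.12 against Scrambled (95% interval -7.22e-05 to 0.24, adjusted p = 0.173) and 0.06 against Control (adjusted p = 0.606).

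HSP90AA1 (chr14:102080742-102139699, minus strand) had 1499, 1508 and 1444 CPM in CA2 shRNA, 1276, 1517 and 1321 CPM in Scrambled, and 1426, 1434 and 1464 in Control. Scrambled 2 was above every CA2 shRNA library, while the other Scrambled libraries were the lowest of the 9. The difference from Scrambled was 0.11 (95% interval -0.02 to 0.24, adjusted p = 0.238), and without Scrambled 2 it was 0.22 (adjusted p = 0.0168, edgeR). HSP90AB1 (chr6:44246166-44253888, plus strand) had 1264, 1396 and 1202 CPM in CA2 shRNA, 1209, 1262 and 1150.5 CPM in Scrambled, and 1189.5, 1217 and 1243 in Control. Its groups overlapped, with differences of 0.09 against Scrambled (95% interval -0.03 to 0.22) and 0.08 against Control (-0.05 to 0.21). Of their 50-base words, 11.3% for HSP90AA1 and 16.6% for HSP90AB1 also occur in other genes, most of all in the pseudogenes HSP90AA2P and HSP90AB3P.

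HSPB1 (chr7:76302673-76304295, plus strand) encodes HSP27, an ATP-independent holdase that keeps unfolding proteins soluble. It had 572, 632 and 560.2 CPM in CA2 shRNA, 652, 630.3 and 590.5 CPM in Scrambled, and 628, 656 and 657 in Control. CA2 shRNA 2 lay within the control range and the other CA2 shRNA libraries below it. The difference was -0.09 against Scrambled (adjusted p = 0.359) and -0.14 against Control (95% interval -0.26 to -0.01, adjusted p = 0.138), and without CA2 shRNA 2 the difference from Control was -0.21 (adjusted p = 0.0263).

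Against Control, BAG3 and DNAJB1 rose, HSPA1A fell and the other 7 genes did not pass. Over all genes, 14.7% passed in this comparison, 6.41% rising and 8.26% falling. The CA2 shRNA libraries lay wholly above the other group for 4 of the 10 genes in both comparisons, and wholly below Control for HSPA1A. Over all genes, groups did not overlap for 32.3% against Scrambled (15.2% wholly above, 17.2% wholly below) and for 33% against Control (15.8% above, 17.2% below). The 1 fall in 10 against Control is near the background of 8.26%, and both comparisons use the same CA2 shRNA libraries.

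Between Scrambled and Control none of the 10 genes passed edgeR's test, and neither did any other gene (0% of 19812, with 0% rising and 0% falling). At an unadjusted p under 0.05 there were 2 of the 10 genes, HSPA1A and HSPA4L, and 550 of all genes, and DESeq2 called 1 gene in all. Both of these chaperone genes lay wholly lower in Scrambled, as did 3.14% of all genes, while 3.66% lay wholly higher and 6.81% were apart in either direction. Differences of the other 8 ranged from -0.11 to 0.01 on the log2 scale.

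**Figure D2:**
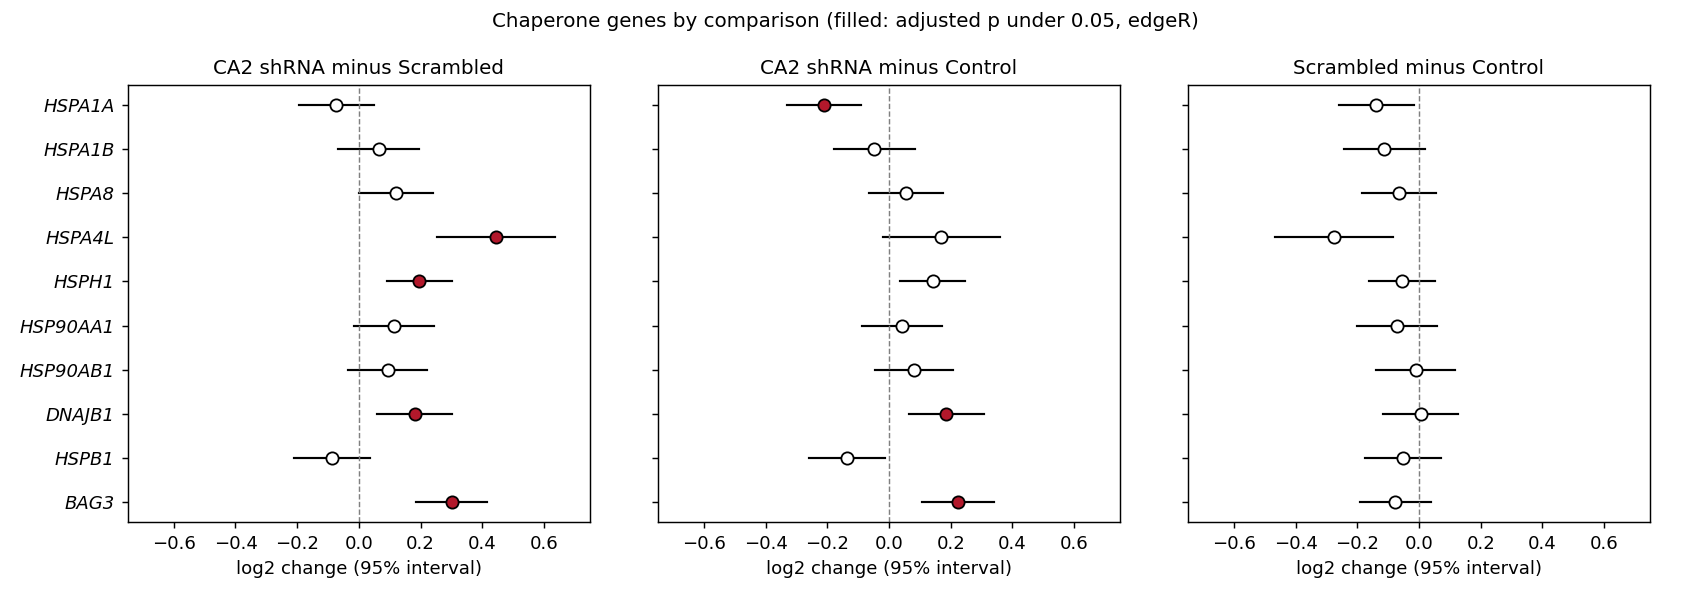
Log2 change with 95% interval (horizontal axis) of the 10 chaperone genes in the 3 comparisons. Filled points passed an adjusted p of 0.05: 4 rises against Scrambled, 2 rises and 1 fall against Control, and none between Scrambled and Control.

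The balance between inducible and constitutive forms was compared within libraries as ratios of RPKM, which do not depend on scaling between libraries. The summed inducible HSP70 genes stood at 0.344 of HSPA8 in CA2 shRNA, 0.376 in Scrambled and 0.393 in Control (geometric means, n = 3 each). The level of this ratio is uncertain, because reads shared by HSPA1A and HSPA1B may have been left out of the counts. It also rests on exon lengths of 2404 and 2517 bases for the pair and 4849 for HSPA8. The ratio was 0.352, 0.332 and 0.349 in CA2 shRNA libraries, 0.377, 0.388 and 0.362 in Scrambled libraries and 0.398, 0.396 and 0.383 in Control libraries. The CA2 shRNA libraries were below all others. The log2 difference was -0.13 against Scrambled and -0.19 against Control, each with an exact two-sided permutation p of 0.1, the smallest that 3 against 3 libraries allows (0.3 adjusted over 6 tests).

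The ratio of inducible HSP90AA1 to constitutive HSP90AB1 was 0.675 in CA2 shRNA, 0.663 in Scrambled and 0.693 in Control. Its level rests on exon lengths of 5097 and 2980 bases, and in CPM, without length, HSP90AA1 was the higher (1432 against 1237). Length does not affect the differences between groups. The library values of all groups overlapped, with log2 differences of 0.03 against Scrambled and -0.04 against Control (exact permutation p = 0.7 and 0.9). The ratio of HSPA1A to HSPA1B, chosen after the values were seen and so not tested, was 1.10 in CA2 shRNA, 1.21 in Scrambled and 1.24 in Control.

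**Figure D3:**
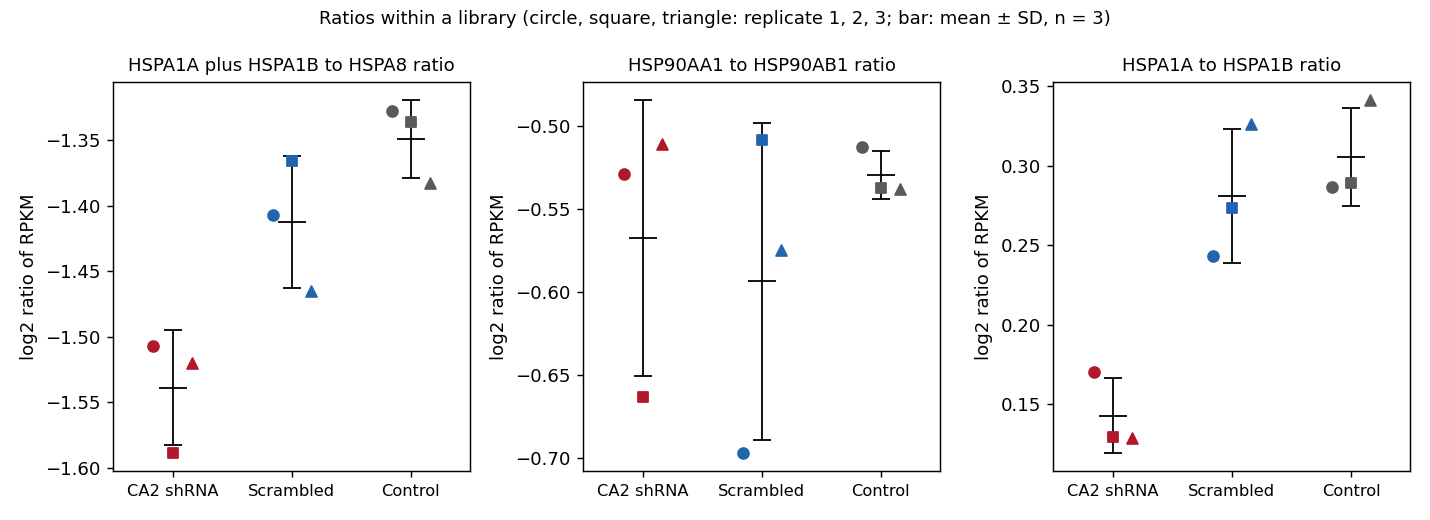
Log2 ratio of RPKM within each library (vertical axis, not from 0) by group, with bars for the mean ± SD of 3. The CA2 shRNA libraries lie below all others for the inducible HSP70 genes over HSPA8 and for HSPA1A over HSPA1B, and the HSP90 ratio overlaps between groups.

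Partners of these chaperones were described by lists chosen with earlier results of these data known, and values are CA2 shRNA against Scrambled unless stated. For all lists below, the shares over all genes were 8.02% rising and 8.88% falling against Scrambled. Against Control they were 6.41% rising and 8.26% falling. Of 7 other HSP70 exchange factors and adaptors, 4 rose and none fell against Scrambled, and 3 rose against Control. The exchange factor BAG2 had 24, 23.6 and 22.5 CPM in CA2 shRNA, 15.8, 17.3 and 16 CPM in Scrambled, and 16.8, 16.3 and 18 in Control, and rose by 0.51 (SE 0.0816, adjusted p = 0.000246, edgeR). HSPBP1, another exchange factor, rose by 0.35 (adjusted p = 0.0061). ST13, the HSP70-interacting protein Hip, rose by 0.33 (adjusted p = 0.00119) and BAG4, of the BAG family of exchange factors, by 0.28 (adjusted p = 0.0465). The BAG4 call held in 12 of 19 alternatives, with an adjusted p of up to 0.161 (edgeR, without Scrambled 1). Against Control BAG4 passed in 1 of 19. Without CA2 shRNA 2, 2 of the 7 rose. The median log2 change of the list was 0.28, against -0.03 over all genes.

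Of 8 other J-domain genes, 2 rose and 1 fell, where 8.02% of all genes rose and 8.88% fell. DNAJB5 rose by 0.33 (adjusted p = 0.0265) and DNAJA1, a partner of cytosolic HSP70, by 0.28 (adjusted p = 0.00134), while DNAJB2 fell by 0.30 (adjusted p = 0.00652, edgeR), a call lost without CA2 shRNA 3. Without Scrambled 3 or CA2 shRNA 2, 1 of the 8 rose. Of 5 other cytosolic HSP70 genes, HSPA1L alone passed, averaging 4.8 ± 0.767 CPM in CA2 shRNA and 6.71 ± 0.684 CPM in Scrambled (adjusted p = 0.0303). That call held in 14 of 19 alternatives and was lost without CA2 shRNA 2 (0.0829), CA2 shRNA 3 (0.201), Scrambled 1 (0.0656), Scrambled 2 (0.0728) or both Scrambled 2 and Control 3 (0.0614). None of the 5 passed against Control, where HSPA1L differed by -0.43 (adjusted p = 0.0622). HSPA1L is a paralog of the inducible pair, and whether it shares reads with them was not measured.

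Of 13 HSP90 co-chaperones, 3 rose and 1 fell, where 8.02% of all genes rose and 8.88% fell. STIP1, the adaptor Hop that passes clients from HSP70 to HSP90, had 247, 273 and 233 CPM in CA2 shRNA, 347, 343 and 312 CPM in Scrambled, and 332, 324 and 339 in Control. Every CA2 shRNA library was below every other, and STIP1 changed by -0.41 relative to Scrambled (SE 0.0625; adjusted p = 0.000146, edgeR) and by -0.40 relative to Control (adjusted p = 0.000189). CHORDC1 rose by 0.29 (adjusted p = 0.0138), the HSP90 ATPase activator AHSA1 by 0.26 (adjusted p = 0.00805) and the kinase co-chaperone CDC37 by 0.21 (adjusted p = 0.0313). Against Control, 2 of the 13 rose and 2 fell. With Scrambled 3 left out 0 rose against Scrambled, with CA2 shRNA 2 left out 1 did, and with Scrambled 2 left out 5 did.

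Of 7 other small heat shock proteins, 3 had enough counts to test, and HSPB6 fell by 0.71 (adjusted p = 0.0245) at 2.42 ± 0.653 CPM in CA2 shRNA and 4.03 ± 0.797 CPM in Scrambled, a call lost when CA2 shRNA 2, CA2 shRNA 3, Scrambled 1 or Scrambled 3 was left out. None of 4 genes for heat shock factors and their binding protein passed in either comparison in the edgeR fit of all 9 libraries. HSF1 averaged 118 ± 10.2 CPM in CA2 shRNA, 103 ± 5.14 CPM in Scrambled and 109 ± 3.09 CPM in Control, and the HSF1-binding protein HSBP1 averaged 122 ± 0.839 CPM in CA2 shRNA, 111 ± 9.55 CPM in Scrambled and 117 ± 10.1 CPM in Control (SD, n = 3 each). The HSF1 difference from Scrambled was 0.19 (adjusted p = 0.057), and it passed in 7 of 19 alternatives, with DESeq2 among them (adjusted p = 0.0371) and with CA2 shRNA 3 left out (adjusted p = 0.0127). Against Control it passed in none. None of 7 other heat-inducible genes passed in either comparison. The polyubiquitin gene UBB averaged 399 ± 37.4 CPM in CA2 shRNA, 369 ± 30.8 CPM in Scrambled and 397 ± 13.2 CPM in Control (SD, n = 3 each).

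The cytosolic chaperonin TRiC, a ring that folds actin and tubulin, and prefoldin, which delivers clients to it, were covered by 14 genes. Of these, 7 rose and none fell against Scrambled, where 8.02% of all genes rose and 8.88% fell. All 14 had a positive log2 change, with a list median of 0.16 against -0.03 over all genes. Against Control 4 rose, where 6.41% of all genes did. The prefoldin subunit PFDN2 rose by 0.29 (adjusted p = 0.0117) and PFDN1 by 0.21 (adjusted p = 0.0213), and the ring subunits CCT6A and CCT3 by 0.19 and 0.19 (adjusted p = 0.0188 and 0.0289, edgeR). The number of risers against Scrambled was 0 without CA2 shRNA 2, 1 without Scrambled 3, and 3 without Control 2 or Scrambled 1.

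Outside the cytosol, 1 of 6 mitochondrial chaperone genes rose, HSPA9, the HSP70 of the mitochondrial matrix, by 0.27 (SE 0.05, adjusted p = 0.000831). Of 9 endoplasmic reticulum chaperone genes, 7 rose and 1 fell against Scrambled, and 5 rose and 1 fell against Control. The shares over all genes were 8.02% rising and 8.88% falling against Scrambled, and 6.41% and 8.26% against Control. DNAJB9 rose by 0.61 (adjusted p = 0.0115), SDF2L1 by 0.44 (adjusted p = 0.00305), the calcium-binding lectin CALR by 0.35 (adjusted p = 0.000706) and the HSP110-like HYOU1 by 0.33 (adjusted p = 0.000956, edgeR). HSPA5, the HSP70 of that compartment, fell by 0.21 (adjusted p = 0.016) and was named after its values were seen. It had 348, 363 and 354 CPM in CA2 shRNA, 400.2, 436 and 392 CPM in Scrambled, and 385, 404 and 418 in Control, with every CA2 shRNA library below every other. The call against Scrambled was lost without CA2 shRNA 1 (0.124), CA2 shRNA 3 (0.0952), Scrambled 2 (0.137) or both Scrambled 2 and Control 3 (0.133), and that against Control (-0.18, adjusted p = 0.0354) in 8 of 19 alternatives. Between Scrambled and Control no gene of any of these lists passed.

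**Figure D4:**
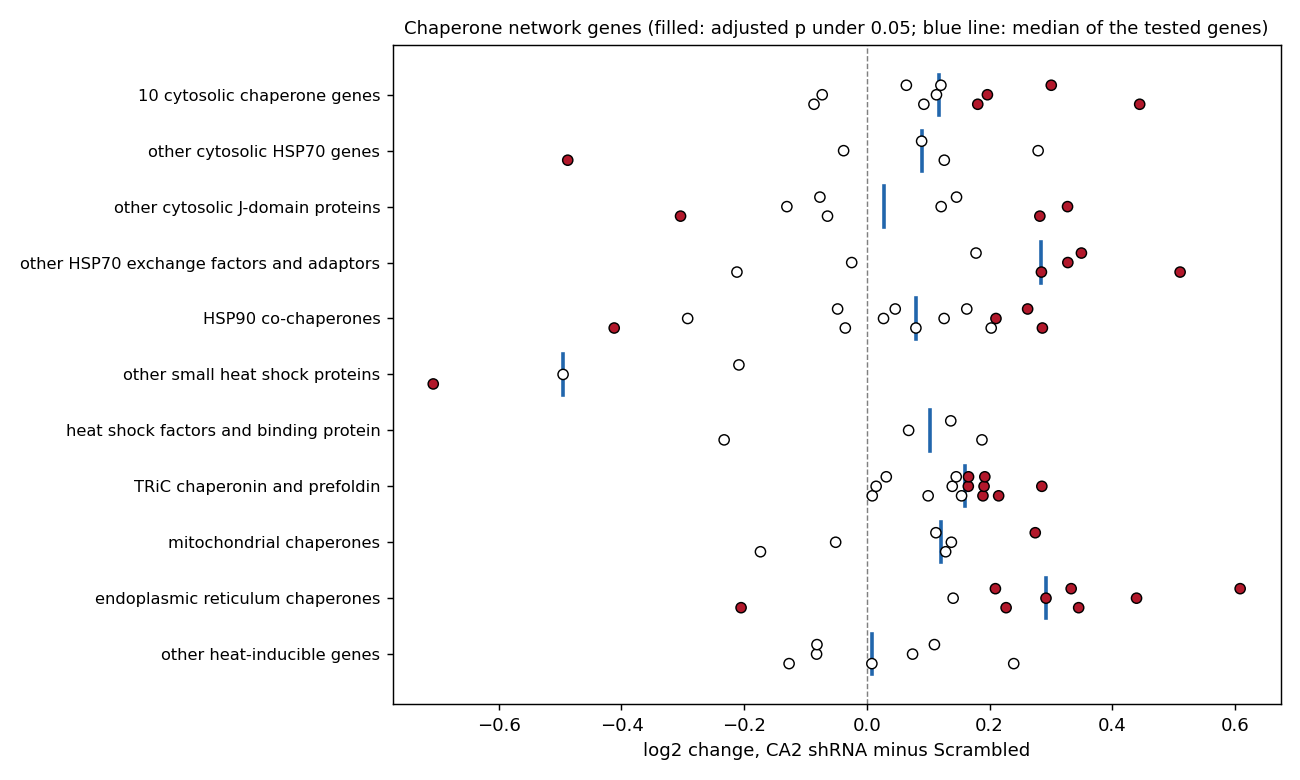
Log2 change, CA2 shRNA minus Scrambled (horizontal axis), of each tested gene in the chaperone lists, 1 row per list. Filled points passed an adjusted p of 0.05 and blue lines are list medians. Of the TRiC and prefoldin genes 7 of 14 rose, and of the endoplasmic reticulum genes 7 of 9, against 8.02% of all genes.

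HSPA4L had the largest change among the 10 genes past the threshold, and its centred log2 CPM over the 9 libraries was set beside that of 9986 genes with a mean of at least 10 CPM. The root mean square difference was smallest for NDFIP2 (0.0499), followed by CCDC47 (0.0544), TMX1 (0.0612), FBXO28 (0.0665) and NIPA1 (0.0674), where the spread of HSPA4L itself was 0.206. NDFIP2 had 22.8, 23 and 24.7 CPM in CA2 shRNA, 15.6, 20.2 and 17.8 CPM in Scrambled, and 19.8, 21.6 and 20.4 in Control. As with HSPA4L, Scrambled 1 was the lowest library of NDFIP2 and Scrambled 2 the highest of its group. NDFIP2 was picked for its likeness over these same 9 libraries, so the shared order is not a separate finding.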

How the data were processed

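RNA-seq of 9 C28/I2 libraries was analysed from 1 deposited table per library. Per the labels' protocols, total RNA was extracted with RNeasy Mini and treated with FastSelect. Per the submitters' processing notes, bcl2fastq, STAR 2.5.1a and featureCounts 1.4.6-p5 were used on GRCh38. The sources used here do not give the annotation release, the strand setting or the treatment of multiply mapped reads. The authors deposited whole-number counts, CPM (counts scaled to the library total) and RPKM (CPM per kilobase of exon), per the file headers. Symbols were found for 60401 of 60671 identifiers.

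The counts were scaled with TMM factors (0.977 to 1.01), filtered with filterByExpr and tested with the quasi-likelihood F test of edgeR 4.0.16 in R 4.3.3, with all 9 libraries in 1 model. The p-values were Benjamini-Hochberg adjusted over 19812 genes with a threshold of 0.05, and intervals cover 95%. Printed CPM is TMM-scaled. Ratios were compared by exact permutation. The test was tried on simulated data for CA2 shRNA against Scrambled, with 19812 genes. Of these, 200 were changed, by 0.5 or 1 on the log2 scale. Of the genes changed by 0.5, 65% were recovered, and 8.89% of calls were false, more than the threshold of 0.05 aims at. Smaller changes were not simulated, and 16.9% of genes passed in the data, so these shares need not carry over. No pair of libraries was alike within sampling noise (chi-square per gene at least 3.38, between Control 3 and Scrambled 2).

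The genes and lists were chosen with earlier results of these data known. Named genes were the 10 chaperones, up to 4 with the largest changes past the threshold per list (or the 2 with the highest level, values only) and the 5 most like HSPA4L. 1 gene that this rule names is not reported here. Alternatives were other scaling factors, other filters, DESeq2 1.42.0, fits on 2 groups, each library left out, Control 3 and Scrambled 2 (which had the lowest mitochondrial shares) left out, a replicate block, and the summed HSPA1A and HSPA1B counts.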

Additional observations from a re-analysis of the deposited data

How the results depend on the processing

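Each result was recomputed under up to 19 alternatives. HSPA4L and BAG3 rose against Scrambled under all 19. Leaving out 1 library at a time, 2 to 5 chaperone genes rose against Scrambled (2 without Scrambled 3), 0 to 3 rose against Control (0 without CA2 shRNA 2, 1 without Control 1, 2 or 3) and 0 to 2 fell against Control (0 without Control 2, Control 3, CA2 shRNA 1 or CA2 shRNA 3). Without both Control 3 and Scrambled 2, or with HSPA1A and HSPA1B summed, 0 fell against Control. With 1 library left out, genes called against Scrambled numbered 2059 (without Scrambled 3) to 4011 (without Scrambled 2). Without both Control 3 and Scrambled 2 they numbered 4289. Scrambled against Control gave 7 genes with no filter, 1 with DESeq2, and 0 to 1 with a library left out (1 without Scrambled 2). The replicate numbers did not pair the libraries (correlations of same-numbered libraries from -0.185 to 0.105), and a replicate block gave 4 rises and 3422 called genes against Scrambled, and 2 rises, 1 fall and 2946 called genes against Control. Signs reversed only where no test passed. For DNAJB1, Scrambled less Control was -0.00257 with DESeq2 size factors, -0.00504 with no filter, -0.00262 with DESeq2, -0.00265 without Control 3 and Scrambled 2, and -0.0228 to 0.0519 with 1 library left out. For HSP90AB1 it was 0.00633 with upper-quartile factors and -0.0394 to 0.0229 with 1 library left out. Without Control 3 and Scrambled 2, HSPA1A against Scrambled was 0.000968. With 1 library left out, the differences ran from -0.12 to 0.00361 for HSPA1A and from -0.00346 to 0.144 for HSPA1B against Scrambled. Against Control they ran from -0.0917 to 0.000497 for HSPA1B and from -0.0113 to 0.117 for HSPA8. UBB against Control was -0.00116 with no filter, -0.0141 in the fit on 2 groups and -0.0804 to 0.0964 with 1 left out, and HSBP1 ran from -0.0107 to 0.0923. The log2 HSP90 ratio difference ran from -0.0257 to 0.0738 against Scrambled and from -0.0664 to 0.0097 against Control. The cause of these changes was not tested. With 3 libraries a group, each 95% interval of a chaperone gene reached at least 0.1 on the log2 scale to either side of its value.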
